A study of Mus musculus with 15 samples.

Results

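The transcripts described here are those of the mouse mitochondrial genome in 266-6 cells, a line derived from a mouse pancreatic acinar tumour. They were taken as every row of the count table whose mouse symbol starts with "mt-", which gave 37 of the 43432 gene identifiers: 13 mRNAs, 2 ribosomal RNAs and 22 tRNAs. Before RNA extraction, cells spent 24 h in stripped medium followed by 24 h of ligand exposure. The ligands were AM580, an agonist selective for the retinoic acid receptor RARα, CD3254, an agonist of its partner RXR, the 2 agonists together, and 9-cis retinoic acid, a ligand of RAR and RXR alike. Cells given the vehicle DMSO were the controls, and each of the 5 groups had 3 libraries. All groups came from the same tumour line, so they model 1 cell source and not acinar tissue. The labels give no ligand concentration, no library kit and no statement that replicates were separate cultures, so a p-value here reflects the spread among these libraries, whose source may be technical.

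Mitochondrial DNA is transcribed from both strands into long precursors that run through many genes. The tRNAs lie between most of the mRNAs and rRNAs, and enzymes that cut out the tRNAs release the other transcripts. The mRNAs encode core subunits of respiratory complexes I, III and IV and of the ATP synthase, while the other subunits, the polymerase and all RNA-processing factors are encoded in the nucleus. Because a precursor carries many genes, the levels of the mature transcripts depend on how stable each one is as well as on transcription. Pieces of mitochondrial DNA have also been copied into nuclear chromosomes during evolution, and a recent copy can be nearly identical to its source.

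Gene counts per library ranged between 28501170 and 46801058, except in the third replicate of 9-cis retinoic acid, which had 14600962. In that library 63.0% of the counter's entries had no gene. Nuclear rRNA-like rows held 14.5% of its gene counts, against at most 1.77% in any other library. Of 20 acinar markers, 14 passed the filter on low counts. The chymotrypsinogen Ctrb1 stood between 3841 and 7201 CPM (counts relative to each library's TMM-scaled total) and the elastase Cela1 between 777 and 3275 CPM. The amylase genes stood at 1.07 CPM or less. Reads with more than 1 placement were left out by the counter, and their part in the low amylase counts was not tested. Treatment did not order the libraries. A principal component analysis without the mitochondrial rows had a first component that carried 48.2% of the variance. It placed 5 libraries between -89.5 and -59.4 and the other 10 between 25.0 and 40.1. The 5 were replicate 1 of AM580, of CD3254, of 9-cis retinoic acid and of DMSO, and replicate 2 of AM580 with CD3254, so each treatment had 1 library in the set of 5 and 2 in the set of 10. No label names this split. It was read from the same counts, so values are compared between the sets without a test.

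Mitochondrial mRNAs took a small and uneven part of the reads. Their share of gene counts was 1.30%, 2.58% and 2.97% with AM580, 2.07%, 2.47% and 2.80% with CD3254, 2.78%, 1.71% and 2.73% with both agonists, 1.67%, 2.67% and 2.93% with 9-cis retinoic acid and 1.83%, 2.38% and 3.09% with DMSO (replicates 1 to 3 in each). In every treatment the lowest share belonged to the library of the set of 5. The set of 5 lay between 1.30% and 2.07%, the set of 10 between 2.38% and 3.09%, and the ranges did not overlap. Counting error was small beside this: the widest 95% Wilson interval of any of these shares spanned 0.0173 percentage points, which covers counting error only. In bulk RNA, fewer cells with a transcript and less of it per cell cannot be told apart.

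**Figure D1:**
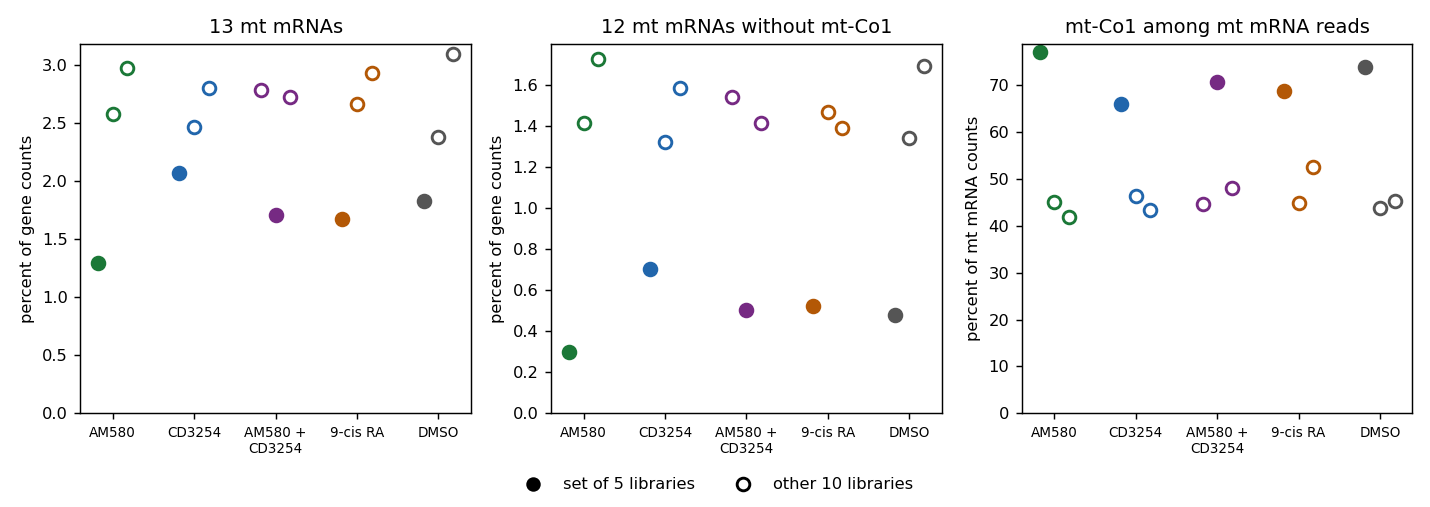
Percent of gene counts held by the 13 mitochondrial mRNAs (left) and by the 12 other than mt-Co1 (middle), and the percent of mitochondrial mRNA counts held by mt-Co1 (right), 1 point per library, by treatment. Filled points are the set of 5 libraries, which lie below the open points in the first 2 panels (1.30% to 2.07% against 2.38% to 3.09% on the left) and above them on the right (66.0% to 77.1% against 41.9% to 52.6%).

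The split was wider once mt-Co1, the catalytic core subunit of complex IV, was set apart. The 12 other mRNAs together held 0.298% to 0.703% of gene counts in the set of 5, against 1.32% to 1.73% in the set of 10. mt-Co1 alone held 66.0% to 77.1% of the mitochondrial mRNA counts in the set of 5 and 41.9% to 52.6% in the set of 10. Leaving out replicate 3 of 9-cis retinoic acid, the upper end in the 9 remaining libraries was 48.1%.

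Per kilobase of annotated length, as the median of the set of 10, mt-Co1 was the most abundant mRNA at 7751 CPM per kb. It was followed by mt-Cytb, the mitochondrial subunit of complex III, at 4475 CPM per kb and by the complex I subunit mt-Nd1 at 2833 CPM per kb. The complex I subunits mt-Nd2 (1710 CPM per kb), mt-Nd6 (1409), mt-Nd4 (1346) and mt-Nd5 (1328) formed a middle group whose last 3 members differed by less than the spread between libraries. The lowest group lay far below. mt-Co2 and mt-Co3, the other mitochondrial subunits of complex IV, had 93.3 and 54.6 CPM per kb, and mt-Atp6 and mt-Atp8, the mitochondrial subunits of the ATP synthase, had 78.8 and 28.7 CPM per kb. The short complex I mRNAs mt-Nd3 and mt-Nd4l had 26.3 and 16.3 CPM per kb.

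Most of that low group cannot be told apart in sequence from a nuclear copy. A search of the annotated nuclear transcripts found 7 unprocessed pseudogenes in 1 stretch of chromosome 1 (GRCm38 chr1:24611535-24616197, minus strand) that follow the mitochondrial order from the end of mt-Co1 to the start of mt-Nd4. Gm28661 matched mt-Co2 over 681 of its 684 bases with no difference, and Gm10925 matched mt-Atp6 over 678 of 681 bases with none. Gm28437 matched mt-Co3 over 783 of 784 bases, again with none. Gm10222 and Gm28439 matched 294 bases of mt-Nd4l and 876 bases of mt-Nd4 without a difference. The first 60 bases of mt-Co2 (chrM:7013-7072) are shown with the same stretch of Gm28661 (chr1:24615506-24615565, minus strand), because no read inside them can be assigned to one place.
mt-Co2: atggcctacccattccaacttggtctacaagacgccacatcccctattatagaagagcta
Gm28661: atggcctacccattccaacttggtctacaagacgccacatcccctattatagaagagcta
Gm28438 differed from mt-Nd3 at 1 of 345 aligned bases and Gm29216 from mt-Co1 at 1 of 483. Those single bases are in capitals in the pairs that follow (mt-Nd3 at chrM:9459-9518 with Gm28438 at chr1:24613060-24613119, and mt-Co1 at chrM:6390-6449 with Gm29216 at chr1:24616129-24616188, both copies on the minus strand).
mt-Nd3: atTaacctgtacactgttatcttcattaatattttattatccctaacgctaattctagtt
Gm28438: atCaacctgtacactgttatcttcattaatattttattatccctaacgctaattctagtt
mt-Co1: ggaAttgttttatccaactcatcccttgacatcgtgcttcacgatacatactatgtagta
Gm29216: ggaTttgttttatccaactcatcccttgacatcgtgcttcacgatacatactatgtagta
An older copy looks different. Gm11410 on chromosome 4 matched mt-Cytb at 1061 of 1142 aligned bases, and in the 60 bases shown (chrM:14970-15029 and chr4:80004814-80004873, plus strand) 8 differ, in capitals.
mt-Cytb: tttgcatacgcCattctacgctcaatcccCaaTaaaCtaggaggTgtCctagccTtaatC
Gm11410: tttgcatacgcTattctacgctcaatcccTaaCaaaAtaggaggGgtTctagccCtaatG

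Only mRNAs of the low group were almost wholly identical to nuclear transcripts, and among the others the level did not follow the shared part. Of all windows of 75 bases, 97.8% to 99.9% were identical to an annotated nuclear transcript in mt-Co2, mt-Atp6, mt-Co3, mt-Nd3 and mt-Nd4l, whose levels ran from 16.3 to 93.3 CPM per kb. The 7 other mRNAs apart from mt-Atp8 shared between 0 and 61.5% of windows and had 1328 to 7751 CPM per kb. mt-Nd4 shared 61.5% and mt-Co1 39.8% of windows, so a part of their length can still take unique reads. mt-Atp8 was the exception, with 0% of windows in an annotated copy and 28.7 CPM per kb. The choice of 75 bases was arbitrary, as the sources used here do not give the read length. Between the chromosome 1 copies of mt-Co2 and mt-Atp6 there are 233 bases with no annotated transcript, the same distance as between the matching bases of the mitochondrial genome, and mt-Atp8 lies in that interval. The 3 other gaps of more than 2 bases between neighbouring copies were 140, 69 and 74 bases, against 140, 69 and 73 in the mitochondrial genome. The nuclear sequence there was not used here. mt-Atp8 also overlaps mt-Atp6 by 43 bases, in capitals in the stretch chrM:7919-7977.
mt-Atp8 and mt-Atp6: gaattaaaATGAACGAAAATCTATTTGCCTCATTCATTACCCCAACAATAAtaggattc

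**Figure D2:**
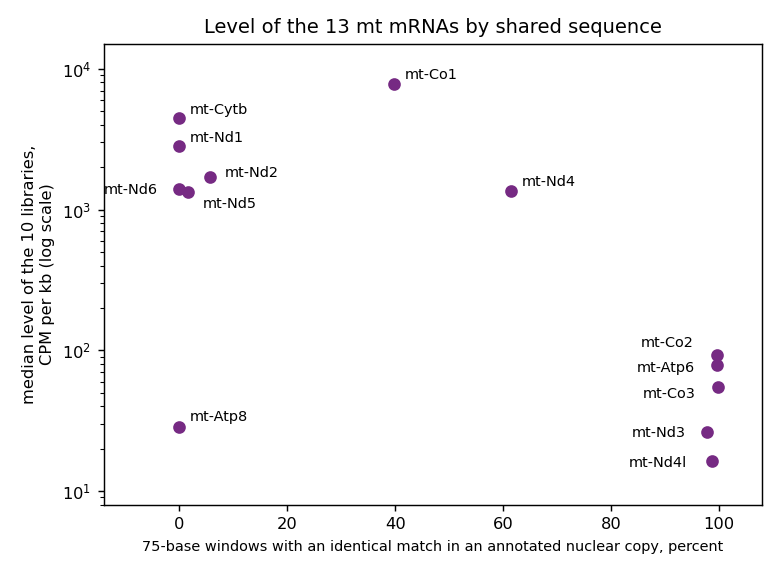
Median level of each of the 13 mitochondrial mRNAs in the set of 10 libraries, in CPM per kilobase on a log scale, against the percent of its 75-base windows found unchanged in an annotated nuclear transcript. The 5 mRNAs at 97.8% or more lie at 16.3 to 93.3 CPM per kb, mt-Atp8 lies at 28.7 with no shared window, and the 7 others lie at 1328 or above.

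Reads were also placed on the copies. Whether those reads came from nuclear or from mitochondrial RNA was not tested. Summed over the 15 libraries, Gm10925 had 99576 reads against 27724 for mt-Atp6, Gm28661 had 99005 against 31094 for mt-Co2, and Gm28437 had 100148 against 22413 for mt-Co3. The ratio of Gm28437 to mt-Co3 in a single library ranged between 3.65 and 5.62. By contrast Gm29216 had 119563 reads and mt-Co1 6842949. Adding each copy to its member raised the set of 10 median to 395 CPM per kb for mt-Co2 and 355 for mt-Atp6. Both sums stayed below the 7 mRNAs at 1328 CPM per kb or more. They stood above mt-Atp8, which shared no window and had 28.7 CPM per kb. Reads with more than 1 placement were left out by the counter. Their alignments made up 7.57% to 11.4% of all its entries, in which 1 read may be entered more than once. How many of them came from mitochondrial RNA was not tested. Levels of mt-Co2, mt-Co3, mt-Atp6, mt-Nd3 and mt-Nd4l, and their place in the order, are therefore uncertain. Those of mt-Co1 and mt-Nd4 were divided by the full length, shared windows included, and may be too low. The place of mt-Nd4 in the middle group is thus uncertain as well. For mt-Atp8, a nuclear match outside annotated transcripts was not tested. Differences between libraries within 1 gene rest on the reads that were placed.

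The 7 complex I mRNAs, which encode the membrane core of NADH dehydrogenase, were the group with the largest median difference between the library sets. Each stood lower in the set of 5 than in all 10 other libraries. Across the 13 mRNAs this held for 10, all of them lower in the set of 5; among all 16736 genes tested, 12.6% lay wholly below and 13.4% wholly above. With the reads of the chromosome 1 copies added to their members the count was 9 of 13, since mt-Co3 with Gm28437 reached 203 CPM in the set of 5 and started at 180 CPM in the set of 10. The same 10 mRNAs had no overlap without replicate 3 of 9-cis retinoic acid, where the shares over all genes were 15% below and 15.5% above. Within each treatment, the log2 level of the library of the set of 5 minus the mean of the other 2 had a median over treatments of -2.05 for the 7 complex I mRNAs together, -1.46 for mt-Cytb, -0.39 for the 3 complex IV mRNAs and -0.41 for the 2 ATP synthase mRNAs, against 0.00 for all genes with reads in every library.

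mt-Nd1, at chrM:2751-3707, is the first mRNA gene after the rRNA genes. In the set of 5 it had 549 CPM with AM580, 892 with CD3254, 696 with both agonists, 654 with 9-cis retinoic acid and 619 with DMSO. In the other 10 libraries its lowest, median and highest levels were 2389, 2711 and 3010 CPM. The gap was wider than either set's range, and the within-treatment difference lay between -2.34 and -1.53 on the log2 scale in the 5 treatments.

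mt-Nd6 is the only mRNA encoded on the minus strand of the reference sequence. In the set of 5 it had 70.8 CPM with AM580, 266 with CD3254, 156 with both agonists, 166 with 9-cis retinoic acid and 101 with DMSO. The other 10 libraries ranged between 555 and 1244 CPM with a median of 731. Its within-treatment difference was -3.70 with AM580 and -1.35 with CD3254, so the direction was shared and the size was not. mt-Nd5, which encodes a proton-pumping subunit, runs towards mt-Nd6 on the other strand, and their 3′ ends overlap by the 14 bases in capitals (chrM:13544-13573).
mt-Nd5 and mt-Nd6: atactcaaTTAATCTCGAGTAAtctcgata
mt-Nd5 had 407 to 1060 CPM in the set of 5 and 2159 to 3877 CPM in the set of 10, with a median difference of -2.05. Since the strand setting of the counting is not given, reads in the overlap may not be told apart.

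mt-Nd3, a small subunit at the junction of the 2 arms of complex I, had the largest median difference of the 13 mRNAs, -2.74, or 6.66-fold lower. It had 0.734 CPM with AM580, 1.70 with CD3254, 1.29 with both agonists, 2.03 with 9-cis retinoic acid and 1.72 with DMSO in the set of 5. The other 10 libraries had 5.60 to 14.8 CPM. In the set of 5 these levels rested on 25, 64, 36, 75 and 68 reads, in the same order of treatments. Reads placed on Gm28438, the nuclear copy of mt-Nd3, differed in the same direction. They stood at 2.23 to 6.31 CPM in the set of 5 and 12.04 to 27.0 CPM in the set of 10. The sum of both had a median difference of -2.30, smaller in size than the -2.48 of mt-Nd6. The remaining complex I mRNAs had smaller median differences: -1.32 for mt-Nd2, -1.21 for mt-Nd4l and -1.17 for mt-Nd4. Each of these was smaller in size than the -1.46 of mt-Cytb, which belongs to complex III. mt-Nd4l and mt-Nd4 overlap by 7 bases and are carried on 1 mature transcript.

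mt-Cytb behaved like the complex I group. It had 1176 CPM with AM580, 2584 with CD3254, 1855 with both agonists, 2021 with 9-cis retinoic acid and 1760 with DMSO in the set of 5, and 4406 to 5613 CPM with a median of 5120 in the set of 10. No library of either set lay in the other's range.

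mt-Co1 did not follow. Its levels were 11161 CPM with AM580, 13080 with CD3254, 12372 with both agonists, 11120 with 9-cis retinoic acid and 12966 with DMSO in the set of 5, inside the 10372 to 19251 CPM of the set of 10. The highest of these was replicate 3 of 9-cis retinoic acid, and without it the set of 10 ended at 13232 CPM. The within-treatment difference of mt-Co1 had a median of -0.01 and lay between -0.45 and 0.20. mt-Nd1 and mt-Nd2, upstream of mt-Co1 on the same strand, and mt-Nd4, mt-Nd5 and mt-Cytb, downstream of it, were all lower in the set of 5 with no overlap. In genome order, the 5 mRNAs with the smallest median differences, mt-Co1, mt-Co2, mt-Atp8, mt-Atp6 and mt-Co3, are neighbours, and every mRNA before and after them had a median difference of -1.17 or lower. Of those 5, 3 are also among the mRNAs with an identical nuclear copy. mt-Co2 (-0.70) and mt-Co3 (-0.39) were lower in the set of 5 with no overlap, by a smaller amount, and both carry the uncertainty of their copies. mt-Atp6 (-0.45) and mt-Atp8 (-0.37) had overlapping ranges, although the median was lower in the set of 5. The reads placed on the copies of mt-Co2, mt-Atp6 and mt-Co3 had median differences of -0.56, -0.37 and -0.32, and their origin was not tested.

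**Figure D3:**
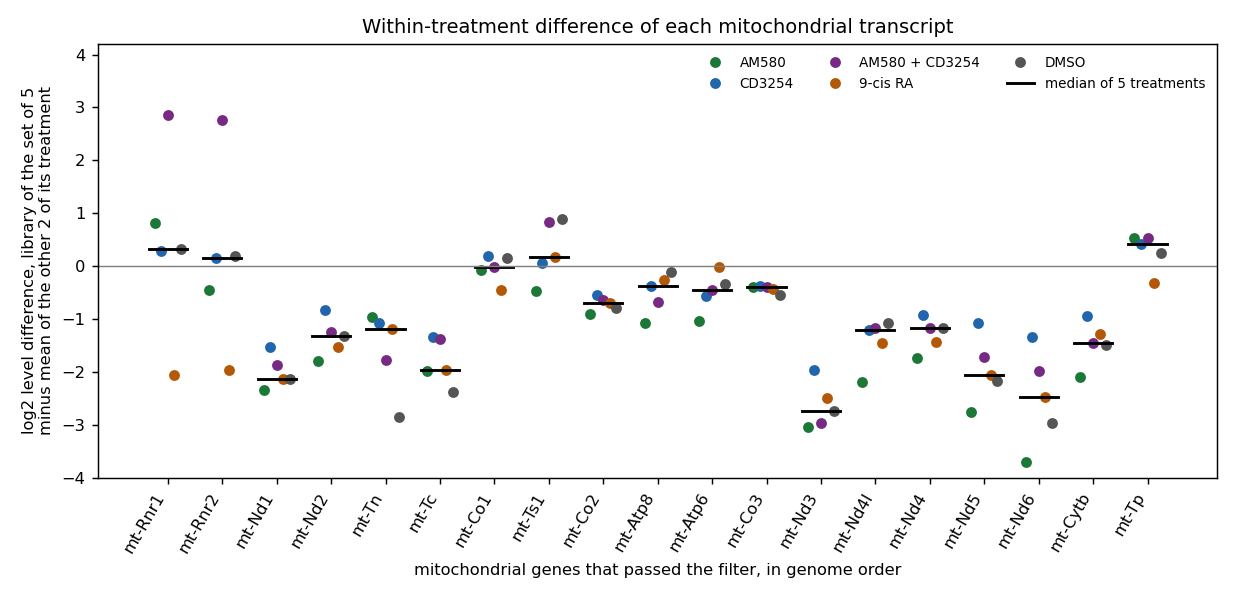
Difference in log2 level between the library of the set of 5 and the mean of the other 2 libraries of the same treatment, for the 19 mitochondrial genes that passed the filter, in genome order. Points are the 5 treatments and bars their median: the complex I genes lie at medians of -2.74 to -1.17, mt-Co1 at -0.01, and the rRNA points spread between -2.06 and 2.85.

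The 2 ribosomal RNAs of the mitochondrial ribosome, mt-Rnr1 (small subunit) and mt-Rnr2 (large subunit), varied widely between libraries and overlapped between the library sets. Their highest level was 51.1 and 31.2 times the lowest, against at most 20.2 times for an mRNA (mt-Nd3). Without replicate 3 of 9-cis retinoic acid the ratios were 15.8 and 18.5, beside 17.1 for mt-Nd3. mt-Rnr1 had 118, 76.2 and 58.9 CPM with AM580, 201, 411 and 65.7 with CD3254, 76.7, 931 and 218 with both agonists, 135, 105 and 3005 with 9-cis retinoic acid and 133, 69.5 and 163 with DMSO. Replicate 3 of 9-cis retinoic acid and replicate 2 of the joint treatment stood above all others. mt-Rnr2 had its highest levels in the same libraries, 3508 and 2086 CPM, against 113 to 562 CPM in the other 13. The ratio of mt-Rnr2 to mt-Rnr1 counts was between 1.01 and 2.52. Neither rRNA has an identical window in an annotated nuclear transcript.

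The libraries with the most mitochondrial rRNA were also those with the most nuclear rRNA. The mitochondrial rRNA share of gene counts was 0.522%, 0.296% and 0.1001% in replicate 3 of 9-cis retinoic acid, replicate 2 of the joint treatment and replicate 2 of CD3254, the same 3 libraries in which rRNA-like rows were highest, at 14.5%, 1.77% and 0.775%. In the other 12 libraries the mitochondrial rRNA share was at most 0.0738%. The libraries share their depth and preparation within each point, so this is a description of the libraries. The part of rRNA carry-over in the mitochondrial rRNA levels was not tested. Mature mitochondrial rRNAs carry only short tails, and the labels do not say whether polyadenylated RNA was selected.

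**Figure D4:**
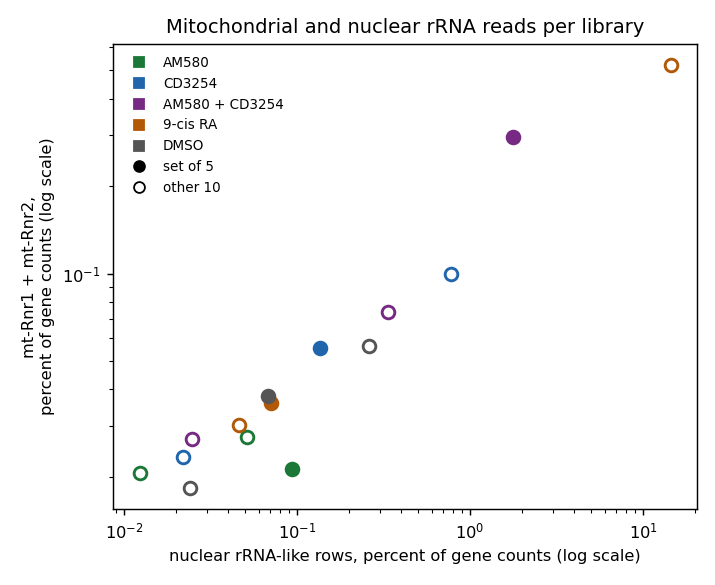
Share of gene counts in mt-Rnr1 and mt-Rnr2 together against the share in nuclear rRNA-like rows, 1 point per library, both axes on log scales. The highest point on both axes is replicate 3 of 9-cis retinoic acid (0.522% and 14.5%), followed by replicate 2 of AM580 with CD3254 (0.296% and 1.77%).

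Of the 22 tRNA genes, 13 had no read in any library and 4 passed the filter: mt-Tp, mt-Tc, mt-Tn and mt-Ts1. A count of 0 allows up to 0.0641 to 0.105 CPM in 14 libraries and 0.205 CPM in replicate 3 of 9-cis retinoic acid, at 3 counts per library. These limits cover only reads that the counter gave to a gene. Entries it held as ambiguous between genes, 2.83% to 6.82% of all entries, were left out. Their part in the low tRNA counts was not tested. Reads were found for 6 of the 8 tRNA genes on the minus strand and 3 of the 14 on the plus strand, and the 4 that passed are all on the minus strand, opposite to every abundant mRNA except mt-Nd6. mt-Tp (proline) led with 10337 reads in all, followed by mt-Tc (cysteine) with 1590, mt-Tn (asparagine) with 824 and mt-Ts1 (serine) with 291. mt-Tf (phenylalanine), the first gene of the plus strand, had 0. Their genes are printed because mt-Tp and mt-Tf, of nearly equal length, mark the ends of the range (mt-Tp chrM:15356-15422, minus strand; mt-Tc chrM:5192-5257, minus strand; mt-Tf chrM:1-68, plus strand).
mt-Tp: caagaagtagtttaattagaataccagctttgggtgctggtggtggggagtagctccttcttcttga
mt-Tc: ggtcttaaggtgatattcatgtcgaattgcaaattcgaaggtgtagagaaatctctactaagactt
mt-Tf: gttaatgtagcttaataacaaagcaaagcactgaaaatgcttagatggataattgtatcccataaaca
The labels do not say whether short RNAs were kept in the libraries.

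The tRNA rows differed among themselves. mt-Tc had 0.704 to 1.43 CPM in the set of 5 and 2.69 to 5.56 CPM in the set of 10, and mt-Tn had 0.279 to 1.14 against 1.37 to 3.85 CPM. These 2 of the 4 lay wholly lower, against 12.6% of all genes, and are neighbours between mt-Nd2 and mt-Co1. mt-Tp had 18.7 to 25.2 CPM in the set of 5, within the 10.9 to 28.4 CPM of the set of 10, and mt-Ts1 had 0.323 to 0.760 against 0.325 to 0.770 CPM. mt-Tp lies past mt-Cytb near the control region, and its median difference was 0.41 while that of mt-Nd6, on the same strand, was -2.48.

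No mitochondrial transcript passed the threshold for any ligand. With edgeR's quasi-likelihood test on all 15 libraries and Benjamini-Hochberg adjustment over 16736 genes (FDR, threshold 0.05), 0 of the 19 tested members were called against DMSO with AM580, CD3254, both agonists or 9-cis retinoic acid, or in the interaction of AM580 and CD3254 (the joint effect minus both single effects). The share of all genes called was 0%, 0%, 0.0179%, 0% and 0% in those 5 contrasts. With the library set as a term it was 0.0299%, 0.0239%, 0.125%, 0.0299% and 0%, and again 0 members were called, so the members' count was near the background throughout. At an unadjusted p under 0.05 the fit without the term held 0, 0, 0, 2 and 0 of the 19 members, and the fit with it held 1, 1, 0, 3 and 1. The shares of all genes at that cut were 1.22%, 0.454%, 1.5%, 1.45% and 0.592% without the term. With it they were 4.21%, 1.98%, 4.79%, 3.97% and 1.98%. DESeq2 with the term also called 0, with a smallest adjusted p of 0.114. The comparisons with DMSO share the same 3 control libraries.

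The mRNA share of gene counts averaged 2.28% ± 0.875 with AM580, 2.44% ± 0.366 with CD3254, 2.41% ± 0.602 with both agonists and 2.42% ± 0.665 with 9-cis retinoic acid, against 2.43% ± 0.635 with DMSO (SD, n = 3 each). Each difference was smaller than the spread within a group, with exact two-sided permutation p of 0.8, 0.9, 1.0 and 1.0. Over the 16 share comparisons made, all Benjamini-Hochberg values of these exact permutation tests were 1.0, and 3 against 3 libraries cannot give an exact p below 0.1. The interval of the fitted effect shows what size could be missed. Without the set term, the median standard error (SE) of an mRNA's log2 fold change was 0.56, and with the term it was 0.22. In the fit with the term, mt-Co1 changed by -0.08 ± 0.20 (log2, SE) with AM580, -0.03 ± 0.20 with CD3254, 0.03 ± 0.20 with both and 0.21 ± 0.21 with 9-cis retinoic acid. For mt-Nd1 the values were -0.03 ± 0.17, 0.13 ± 0.17, -0.01 ± 0.17 and 0.08 ± 0.17, and for mt-Cytb -0.15 ± 0.22, 0.21 ± 0.22, 0.05 ± 0.22 and 0.06 ± 0.22.

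**Figure D5:**
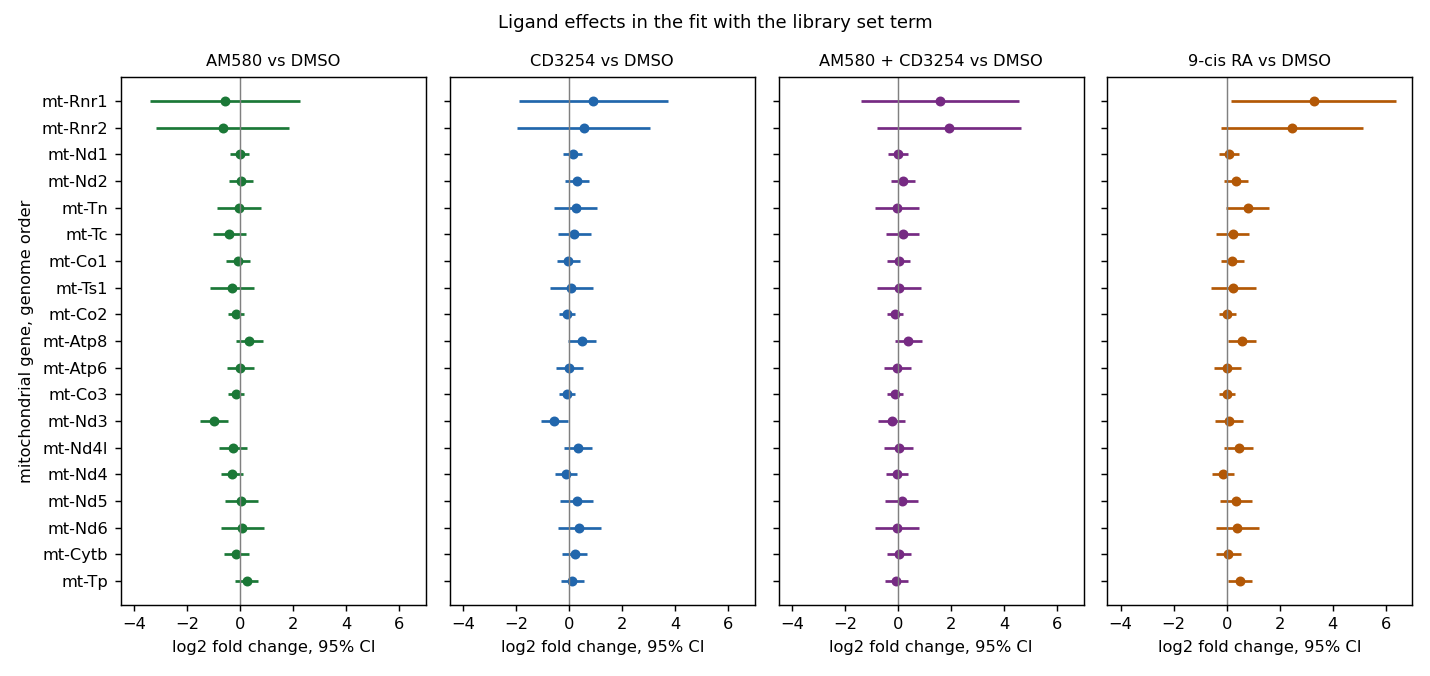
Fitted log2 fold change against DMSO with its 95% interval for the 19 mitochondrial genes that passed the filter, in the edgeR fit with the library set term, 1 panel per treatment. No gene passed the adjusted threshold; the widest intervals are those of mt-Rnr1 and mt-Rnr2, and mt-Nd3 lies at -0.98 with AM580.

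In the fit with the set term, the smallest unadjusted p among the members belonged to mt-Nd3; without the term it belonged to mt-Rnr1 with 9-cis retinoic acid (unadjusted p = 0.022 by edgeR). The levels of mt-Nd3 were 0.734, 5.60 and 6.60 CPM with AM580 and 1.70, 6.21 and 7.06 with CD3254. With both agonists they were 9.44, 1.29 and 10.8 CPM. They were 2.03, 8.84 and 14.8 with 9-cis retinoic acid and 1.72, 10.5 and 12.6 with DMSO. Within the set of 10, the libraries of each single agonist lay below those of DMSO, while those of the joint treatment overlapped them. With the reads of its copy Gm28438 added, the set of 10 had 20.8 and 25.5 CPM with AM580 and 23.0 and 23.6 CPM with CD3254, against 27.0 and 24.6 CPM with DMSO, so AM580 then overlapped DMSO. In the fit with the term its log2 fold change was -0.98 ± 0.24 with AM580 (unadjusted p = 0.0013, FDR 0.808 by edgeR), -0.55 ± 0.24 with CD3254 (FDR 1.00), -0.24 ± 0.24 with both and 0.08 ± 0.24 with 9-cis retinoic acid. The interaction was 1.30 ± 0.34 (unadjusted p = 0.0021, edgeR FDR 0.961). None of these passed the correction. Without the term the AM580 value was -0.93 ± 0.97. Its neighbours in the genome, mt-Co3 and mt-Nd4l, had -0.15 ± 0.14 and -0.28 ± 0.25 with AM580.

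The rRNAs had the largest fitted values, which rest on single libraries. With 9-cis retinoic acid mt-Rnr1 had a log2 fold change of 3.15 ± 1.21 and mt-Rnr2 of 2.45 ± 1.07 without the set term, with an edgeR FDR of 1.00 for both. Without replicate 3 they were -0.02 ± 0.87 and -0.21 ± 0.80. With both agonists mt-Rnr2 had 1.96 ± 1.05, and 0.54 ± 1.01 without replicate 2. The tRNA row mt-Tp had 0.49 ± 0.21 and mt-Atp8 0.58 ± 0.24 with 9-cis retinoic acid in the fit with the term, both with an edgeR FDR of 0.98.

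Nuclear genes that act on mitochondrial DNA and RNA were counted in the same fits, and so were the chromosome 1 copies, which are pseudogenes. In lists for transcription (10 of 10 genes tested), replication and nucleotide supply (13 of 13), RNA processing and stability (19 of 19), the mitochondrial ribosome (76 of 77), biogenesis regulators (8 of 8) and the chromosome 1 copies (6 of 6), 0 members were called in either direction in any of the 5 contrasts in either fit. Over all genes 0% to 0.125% were called, so a count of 0 is near the background. In the fit with the term, the ribosome list had the medians farthest from that of all genes: 0.26 with AM580, with members between -0.08 and 0.57, and -0.30 in the interaction, each against 0.00 over all genes. Its smallest p values belonged to the ribosomal proteins Mrps18b, with 0.52 ± 0.17, and Mrpl22, with 0.47 ± 0.20 (edgeR FDR 0.808 for both). Among processing factors the smallest belonged to Tbrg4 and Fastk, proteins of the FASTK family of mitochondrial RNA regulators, with 0.35 ± 0.14 for Tbrg4 with AM580 and 0.32 ± 0.15 for Fastk with 9-cis retinoic acid. Primpol, a primase-polymerase, had -0.59 ± 0.25 and the termination factor gene Mterf1a -0.58 ± 0.32 with AM580. The RNase H gene Rnaseh1 had -0.34 ± 0.19 with both agonists, and Polrmt, the mitochondrial RNA polymerase, 0.23 ± 0.13 with 9-cis retinoic acid. Pprc1 and Ppargc1a, coactivators of the PGC-1 family, had 0.27 ± 0.14 with both agonists and -0.47 ± 0.27 with AM580. The copies with the smallest p were Gm28438 with 0.71 ± 0.27 for 9-cis retinoic acid and Gm28437 with -0.35 ± 0.14 for AM580.

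Between the library sets these lists were not alike. Of the 19 RNA processing and stability genes, 8 lay wholly lower in the set of 5 and 1 wholly higher, against 12.6% and 13.4% of all genes. The genes named here were chosen for their lack of overlap, after their values were seen. The 8 were Lrpprc, which stabilises mitochondrial mRNAs, Elac2, the tRNA 3′ endonuclease, Fastkd1, Fastkd2, Fastkd3, Fastkd5, Tbrg4 and the exonuclease gene Rexo2. Lrpprc had 40.9 to 79.0 CPM in the set of 5 and 99.4 to 133 CPM in the set of 10, and Fastkd5, known in human cells for processing precursor ends that no tRNA flanks, had 1.67 to 2.71 against 4.69 to 9.24 CPM. The 1 higher gene was Grsf1, an RNA-binding protein of mitochondrial RNA granules, with 275 to 291 CPM in the set of 5 and 192 to 241 CPM in the set of 10. In the transcription list only Polrmt had no overlap, at 55.3 to 67.8 CPM in the set of 5 and 75.4 to 113 CPM in the set of 10. Tfam, which packages and activates mitochondrial DNA, had 69.3 to 107 CPM in the set of 5 and 98.3 to 151 CPM in the set of 10, with overlap. The replication list had 1 gene lower (the helicase gene Twnk) and 3 higher (Polg2, Top1mt and Tk2) of 13, the biogenesis list 3 lower of 8 (Pprc1, Nrf1 and Gabpb1) and the ribosome list 4 lower of 76 (Mrpl37, Mrpl3, Mrps2 and Mrpl35). These counts describe libraries that differ in many genes, and no test was made between the sets.

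Library measures that could move with the sets were compared in the same way. Gene counts were 28501170 to 37997023 in the set of 5 and 14600962 to 46801058 in the set of 10. Entries without a gene were 19.2% to 28.5% in the set of 5 and 18.1% to 63.0% in the set of 10. The rRNA-like rows held 0.0679% to 1.77% and 0.0123% to 14.5%, so all 3 measures overlapped. Of the acinar markers tested, 3 of 14 lay wholly lower in the set of 5 (Cel, Ptf1a and Rbpjl) and 1 wholly higher (Bhlha15). Of the markers of other cell types, Sox9 (ductal, 1 of 5) and Col1a2 (fibroblast, 1 of 4) lay lower, and Col1a1 (fibroblast, 1 of 4) and Cd68 (immune, 1 of 1) higher, while the endocrine (2) and endothelial (2) markers tested overlapped. Over all genes 12.6% lay wholly below and 13.4% wholly above. The insulin genes, glucagon and Ptprc stood at 0.11 CPM or less, and the endocrine granule gene Chga at 166 to 447 CPM with a median of 296. The part of these differences in the mitochondrial levels was not tested.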

How the data were processed

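The authors deposited unnormalized read counts, 1 column for each of 15 libraries and 1 row for each Ensembl gene. HISAT2 2.2.1, SAMtools 1.18, FastQC, HTSeq and the build mm10 are named in the submitters' processing notes. Read length, strand setting and annotation release: not given in the sources used here. Reads that HTSeq gave to no gene (5 categories) were kept out of all totals. Their share of all entries was 18.1% to 28.5%, and 63.0% in the third 9-cis retinoic acid library. A read with several alignments may be entered more than once.

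Symbols, coordinates and sequences came from GENCODE M21 (GRCm38, which is mm10); 42462 of 43432 identifiers matched a symbol. Genes kept by filterByExpr (16736, of them 19 mitochondrial) were scaled by TMM factors and fitted with edgeR 4.0.16 (robust quasi-likelihood, limma 3.58.1, R 4.3.3) over all 15 libraries, with FDR by Benjamini-Hochberg over all genes and a threshold of 0.05. A second fit had the library set as a term, given by the sign of principal component 1 of log2 CPM (prior count 2) over all tested rows but the mitochondrial ones. Residual degrees of freedom were 10 and 9. DESeq2 1.42.0 was an alternative. Levels are CPM with TMM factors; SE values come from the F statistic, and shares were compared by exact permutation of libraries. Nuclear copies were found with BLAST 2.17.0 (word size 28, at least 100 bases) against GENCODE nuclear transcripts; Gm10222 came from this search. The edgeR fits were tested on simulated counts for AM580 against DMSO. Those counts varied less between libraries than the real ones did in the fit without the term.

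All members, the lists and the tests were chosen with earlier results of these data known. All mRNAs, rRNAs and tRNAs that passed the filter are named; of each nuclear list, any called member is named, and otherwise the 2 with the smallest p in the fit with the term. Alternatives covered scaling, filters, the test, the set term, the replicate number as a block, each library left out, and the denominators of the shares.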

Additional observations from a re-analysis of the deposited data

How the results depend on the processing

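The count of 0 mitochondrial transcripts called held in each of 205 fits, made of 41 settings and 5 contrasts, with a smallest adjusted p of 0.531 by edgeR and 0.114 by DESeq2 with the library set term. The settings were other scalings, filters and tests, the set term, the set of 10 alone and each library left out. The count of 10 mRNAs wholly lower in the set of 5 was also 10 without TMM factors and with totals that left out the mitochondrial and rRNA-like rows, and 9 with the reads of the nuclear copies added, an alternative chosen after seeing the data. It was 10 with each library left out, which cannot create an overlap. With each library left out, the log2 difference in mRNA share from DMSO lay between -0.38 and 0.22 for AM580, -0.16 and 0.22 for CD3254, -0.21 and 0.21 for both agonists and -0.20 and 0.23 for 9-cis retinoic acid. The highest over the lowest group mean of the mitochondrial rRNA share was between 5.72 and 12.1. Of 3795 values of single genes, 17 moved by more than their error, and no value was called in any fit; the 17 concern mt-Rnr1, mt-Rnr2, mt-Co1 and mt-Ts1 in fits without replicate 3 of 9-cis retinoic acid, without replicate 2 of the joint treatment, or in the set of 10 alone.

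With the replicate number as a block, 0 members were called in each contrast. The block leaves the share differences as they were, at -0.14, 0.03, -0.02 and -0.01 (log2) for AM580, CD3254, both agonists and 9-cis retinoic acid, because each number occurs once in each group. Libraries of the same number correlated at 0.52 to 0.81 for number 1 and 0.28 to 0.58 for number 2 outside the joint treatment, whose replicates 1 and 2 correlated with them at -0.66 to -0.42 and -0.68 to -0.53. Within the set of 10, libraries of different numbers and treatments correlated at -0.08 to 0.66. For number 3, 8 of 10 correlations were over 0.1. Since not every pair was, the numbers were not taken to pair the libraries. For the 13 tRNA rows with no read, a level under the limit that a count of 0 allows could not be seen at this depth. That limit does not cover reads left out as ambiguous between genes.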
